A study of Mus musculus with 6 samples.

Results

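Cytotoxic granules of killer lymphocytes hold granzymes, serine proteases that are released onto a target cell, together with perforin, which forms pores in the target's membrane, and serglycin, a proteoglycan on which the granule proteins are packed. Granzyme B cuts proteins after aspartate and activates caspases, granzyme A cuts after basic residues, and the mouse carries a further row of granzyme genes beside Gzmb that rodents expanded. The genes described here were chosen by symbol in the exon read count table. They are Gzma, Gzmb, Gzmc, Gzmd, Gzme, Gzmf, Gzmk and Gzmn, the perforin gene Prf1 and the serglycin gene Srgn, 10 of 23453 gene rows. All 10 have a row, 8 had at least 1 read, and 7 passed the filter on low counts.

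The libraries came from cultures of spleen cells of OT1 mice on the C57BL/6 strain, a line in which a transgene gives T cells a receptor that recognises an OVA peptide, and the labels call the cells cytotoxic T lymphocytes (CTLs). Every culture received OVA peptide for 48 h, and then TCM or FCM for 8 h. There were 3 TCM libraries and 3 FCM libraries, the FCM ones titled Vehicle, and the labels expand neither name nor say whether replicates were separate animals or cultures. P-values therefore reflect only how far these libraries differ from each other, a spread that may be technical. Whether the T cells were separated from other spleen cells is not given in the sources used here.

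The deposited tables disagree on which group is which. In all 6 cases a normalized column equalled, up to a constant factor, the count column with the opposite treatment and the same replicate number. The libraries thus fall into the same groups of 3 in both tables, under exchanged titles. "Count-table TCM" and "count-table FCM" name the groups by the count table's titles, and every direction given here turns round under the titles of the normalized table.

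Library totals ran from 17166687 to 25789381 counts, so that 1 count was worth 0.0374 to 0.0655 CPM (the depth-scaled read count, with library sizes scaled by TMM). Replicate 1 stood apart from replicates 2 and 3 in both groups, with a chi-square per gene of 48.8 to 86.3 for pairs that held it and 4.26 to 6.06 for the other pairs. Of 9 CD8 T cell markers tested, 2 were higher (Cd3d and Thy1), 1 was lower (Cd8a) and 6 did not pass in count-table TCM libraries. The shares over all genes tested were 28.8% higher and 30.0% lower. Cd3e averaged 137 ± 9.53 CPM in count-table TCM and 125 ± 16.8 CPM in count-table FCM libraries, and Cd8b1 averaged 81.6 ± 4.43 and 78.2 ± 5.69 CPM in the same order (SD, n = 3 each).

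Of the 7 genes that could be tested, 5 were higher in count-table TCM libraries (Gzma, Gzmb, Gzmc, Gzmf and Srgn), Prf1 was lower and Gzmk did not pass. The test was edgeR's quasi-likelihood test on the counts, with p-values adjusted by the Benjamini-Hochberg method over the 12423 genes that passed the filter and a threshold of 0.05. Across all genes tested, 28.8% were called higher and 30.0% lower, 58.8% in all. The median log2 change was 0.98 over the 7 genes and -0.018 over all genes tested. Gzmf passed the low-count filter through its reads in count-table TCM libraries alone, so it could only be called in that direction. The count and the median describe the genes and support nothing beyond that.

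Gzmb held most of the granzyme reads and moved most among the genes with more than a few reads. Its level was 2532, 2898 and 3146 CPM in count-table TCM replicates 1 to 3, against 463, 467 and 534 CPM in count-table FCM replicates 1 to 3. The lowest count-table TCM library lay far above the highest count-table FCM library, and the groups did not overlap, as in 64.2% of all genes tested. The log2 fold change was 2.55 ± 0.19 (SE), a 5.86-fold rise (adjusted p = 9.91e-06, edgeR), and 2.44% of the genes tested had a larger rise. Within replicate numbers the ratio of count-table TCM to count-table FCM was 5.47, 6.20 and 5.89. Gzmb lies on the minus strand of chromosome 14 (56258838 to 56262260, GRCm38), and no stretch of 50 bases of its transcripts occurred in a transcript of another gene in GENCODE M21. In bulk cultures, fewer cells of a type and less RNA per cell cannot be told apart.

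**Figure D1:**
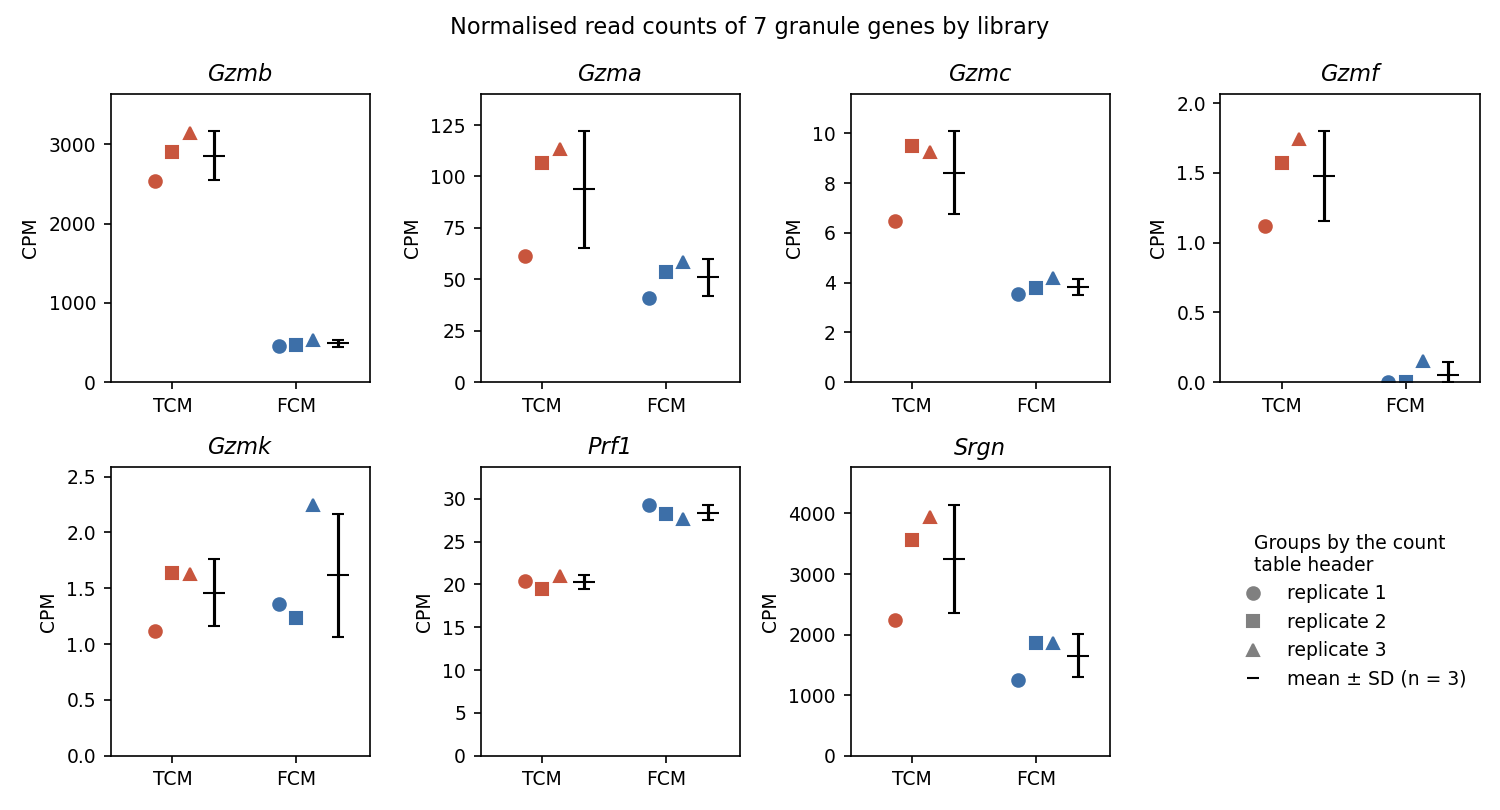
Normalised read counts (CPM, linear axes from 0) of the 7 genes tested in each library, with count-table TCM at the left and count-table FCM at the right of each panel; symbols mark replicates 1 to 3 and bars the mean ± SD (n = 3), cut at 0 for Gzmf. Gzmb lies between 2532 and 3146 CPM in count-table TCM and between 463 and 534 CPM in count-table FCM libraries, Prf1 has the opposite order, and Gzmk overlaps.

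Gzma and Gzmk are neighbours on chromosome 13 and encode proteases with trypsin-like cutting. Gzma had 61.2, 107 and 113 CPM in count-table TCM replicates 1 to 3, against 40.9, 53.6 and 58.2 CPM in count-table FCM replicates 1 to 3. Replicate 1 was the lowest of its group on both sides, and the count-table TCM replicate 1 stood only just above the highest count-table FCM library. The rise was 1.84-fold (log2 0.88 ± 0.24 SE, edgeR adjusted p = 0.0109). It did not pass once the trend of fold change on transcript length was removed (log2 change 0.32, adjusted p = 0.273 in edgeR). Nor did it pass when libraries were scaled to their CD8 T marker counts, a setting chosen after seeing the data (0.18, adjusted p = 0.431 in edgeR). Thy1 was the largest part of those marker counts and was itself 2.75-fold higher in count-table TCM libraries. It averaged 923 ± 104 CPM in count-table TCM and 336 ± 51.1 CPM in count-table FCM libraries (SD, n = 3 each). The marker sums were 1573 to 1879 and 959 to 1148 CPM in the same order. This scaling therefore leans on a gene that itself changed.

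Gzmk stayed at few reads in all libraries. It had 21, 25 and 29 counts in count-table TCM replicates 1 to 3, against 30, 33 and 58 counts in count-table FCM replicates 1 to 3. After scaling, the groups overlapped at 1.12 to 1.64 CPM in count-table TCM and 1.23 to 2.25 CPM in count-table FCM libraries. Its log2 change of -0.16 ± 0.30 (SE) did not pass (adjusted p = 0.666, edgeR). Counting error alone leaves a ratio of count-table TCM to count-table FCM between 0.659 and 1.20 (exact binomial interval at 95%). The sign of the change turned without count-table TCM replicate 1 (0.014) and without count-table FCM replicate 3 (0.16). With the length trend removed it was -0.62 (adjusted p = 0.102, edgeR), and scaled to CD8 T marker counts Gzmk was called lower in count-table TCM libraries (-0.84, adjusted p = 0.0217 in edgeR).

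Prf1 was lower in count-table TCM libraries, by a small amount that was much the same in each replicate. Its level was 20.4, 19.4 and 21.0 CPM in count-table TCM replicates 1 to 3, against 29.3, 28.2 and 27.6 CPM in count-table FCM replicates 1 to 3. The spread within each group was narrow and the groups did not overlap, as in 64.2% of all genes tested. The log2 change was -0.48 ± 0.10 (SE; adjusted p = 0.00366, edgeR), a level 1.40-fold lower in count-table TCM libraries. The ratio of count-table TCM to count-table FCM was 0.697, 0.689 and 0.759 in replicates 1 to 3. The call held in all 15 alternative settings that kept the count table's titles. Scaled to CD8 T marker counts the log2 change was -1.18, and with library totals alone it was -0.70.

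Srgn was among the strongest signals of the set. It had 2241, 3563 and 3948 CPM in count-table TCM replicates 1 to 3, against 1243, 1856 and 1854 CPM in count-table FCM replicates 1 to 3. Replicate 1 was again the lowest in each group, and the groups did not overlap, as in 64.2% of all genes tested. The rise was 1.97-fold (log2 0.98 ± 0.27 SE, edgeR adjusted p = 0.0131). The call was lost without count-table TCM replicate 2 (log2 change 0.91, adjusted p = 0.0576 in edgeR) and with the length trend removed (0.69, adjusted p = 0.0570). Scaled to CD8 T marker counts it was 0.28 (adjusted p = 0.183, edgeR). Serglycin is also a product of neutrophils, mast cells and macrophages, and most markers tested of these cells were lower in the same count-table TCM libraries. Neutrophil markers summed to 1545 to 2640 CPM in count-table TCM and 8854 to 13477 CPM in count-table FCM libraries, and 12 of 13 tested fell, while Mmp8 did not pass. All 8 tested markers of mast cells and basophils fell. Over all genes tested, 30.0% fell and 28.8% rose. Of 10 macrophage markers tested 7 fell, Marco and Cd14 rose and Cd68 did not pass. The part of these cells in the Srgn values was not tested.

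Gzmc and Gzmf, neighbours of Gzmb, were higher in count-table TCM libraries at low levels. Gzmc had 6.49, 9.49 and 9.27 CPM in count-table TCM replicates 1 to 3, against 3.54, 3.78 and 4.19 CPM in count-table FCM replicates 1 to 3. The groups did not overlap, as in 64.2% of all genes tested. The level of Gzmc was 2.18-fold higher in count-table TCM libraries (log2 1.13 ± 0.18 SE, edgeR adjusted p = 0.000706). That change was 0.55 with the length trend removed and 0.43 when scaled to CD8 T marker counts, and it passed in both. Gzmf had 21, 24 and 31 counts in count-table TCM replicates 1 to 3, against 0, 0 and 4 counts in count-table FCM replicates 1 to 3. From the 76 and 4 counts of the groups the ratio was 27.3 (exact binomial interval at 95% 10.2 to 103, counting error only), and the fitted log2 change was 4.63 ± 0.64 (SE; adjusted p = 0.000329, edgeR). Gzmf passed the low-count filter through its count-table TCM reads alone, so it could only be called in that direction. Without count-table FCM replicate 3 no count was left on that side. Gzmf was then 23.8-fold above a floor of 3 counts over the group. That value takes the 76 counts as exact and leaves out the only count-table FCM library with reads. It is no lower bound for all libraries, where the interval reaches down to 10.2.

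The remaining genes of the set were nearly silent. Gzmd and Gzmn had 0 counts in all 6 libraries, which allows up to 0.0578 CPM over the count-table TCM group and 0.0402 CPM over the count-table FCM group. Gzme had 1 count in count-table TCM replicate 1 and 1 count in count-table FCM replicate 2. The granzymes D to G are known from long-term cultures of mouse T cells and from uterine NK cells, and granzyme N from mouse testis. Their sequences are close, which limits how reads can be assigned. Of the 50-base stretches in its transcripts, Gzmd shares 21.9%, Gzme 20.6% and Gzmf 19.4% with transcripts of other genes, and Gzmc shares 4.14%. How reads that match several genes were counted is not given in the sources used here, so the Gzmf values are uncertain. The stretches of Gzmf are shared with Gzmd, Gzmg and Gm4022, and the span of Gm4022 overlaps that of Gzmf. Gzmk overlaps the span of Esm1. Gzma, Gzmb, Gzmk, Prf1 and Srgn share no such stretch.

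Along chromosome 14, reads were found for Gzmb and the nearest granzyme genes, Gzmc and Gzmf, and hardly any for those farther away. The start of Gzmc lies 27.6 kb from that of Gzmb, Gzmf 50.8 kb, Gzmn 87.7 kb, Gzmg 102.7 kb, Gzmd 129.7 kb and Gzme 141.6 kb. Beyond them lie Ctsg, the cathepsin G gene of neutrophils and mast cells, at 159.7 kb, and Mcpt8, a basophil protease gene, at 177.0 kb. Both were lower in count-table TCM libraries. Ctsg averaged 1.37 ± 0.380 CPM in count-table TCM and 5.26 ± 0.982 CPM in count-table FCM libraries, and Mcpt8 averaged 11.7 ± 2.34 CPM and 37.3 ± 4.26 CPM in the same order (SD, n = 3 each). Their log2 changes were -1.95 and -1.67 (adjusted p = 0.000171 and 5.30e-05, edgeR). Beyond the protease genes, Khnyn was lower (-1.49) and Sdr39u1 higher (0.60) in count-table TCM libraries.

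**Figure D2:**
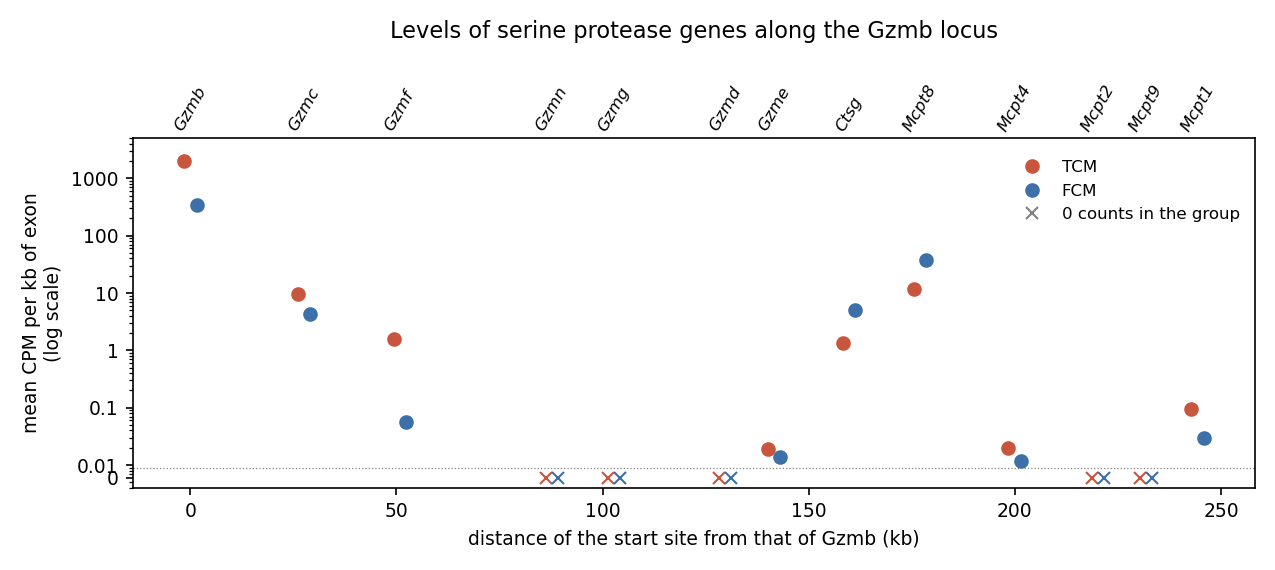
Mean CPM per kb of exon (log axis, with a line of crosses for groups at 0 counts) of protease genes by the distance of their start sites from that of Gzmb, count-table TCM to the left of count-table FCM at each gene. Gzmb, Gzmc and Gzmf were higher in count-table TCM, Ctsg and Mcpt8 were lower, and Gzmn, Gzmg and Gzmd had no reads.

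Set per kb of exon, the order of the genes differed between the groups at a few places. In count-table TCM libraries Gzmb had 1991 ± 215 CPM per kb and Srgn 1480 ± 408 CPM per kb (SD, n = 3 each), and their ranges overlapped at 1763 to 2191 and 1021 to 1798. In count-table FCM libraries Srgn came first with 752 ± 161 CPM per kb, above Gzmb at 340 ± 27.8 CPM per kb, with no overlap. Gzma was next in both groups at 93.2 ± 28.1 CPM per kb in count-table TCM and 50.6 ± 8.91 CPM per kb in count-table FCM libraries. Gzmc and Prf1 overlapped in count-table TCM libraries at 9.42 ± 1.87 and 7.85 ± 0.297 CPM per kb. In count-table FCM libraries Prf1 stood above Gzmc at 10.98 ± 0.335 and 4.29 ± 0.367 CPM per kb. Of the 7 genes tested, Gzmf and Gzmk were last, at 1.61 and 1.05 CPM per kb in count-table TCM and 0.0563 and 1.16 CPM per kb in count-table FCM libraries. Below them came Gzme, with 1 count in each group, and Gzmd and Gzmn, with 0 counts.

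Ratios of counts within a library do not depend on how libraries are scaled, and the groups did not overlap in any ratio given here. Taken singly, 64.2% of all genes tested did not overlap either, and the share over all pairs of genes was not computed. The lack of overlap is thus a description only. Gzmb took 97.3%, 96.0% and 96.1% of all granzyme counts in count-table TCM replicates 1 to 3, against 90.7%, 88.6% and 88.9% in count-table FCM replicates 1 to 3. Gzma made up 2.35%, 3.53% and 3.46% in count-table TCM, against 8.02%, 10.2% and 9.70% in count-table FCM libraries. There were 41.3, 27.2 and 27.8 Gzmb reads per Gzma read in count-table TCM replicates 1 to 3, against 11.3, 8.72 and 9.17 in count-table FCM replicates 1 to 3. Each perforin read stood beside 124, 149 and 150 Gzmb reads in count-table TCM, against 15.8, 16.6 and 19.3 in count-table FCM libraries, the widest gap of these ratios. Srgn reads per Gzmb read were 0.885, 1.23 and 1.26 in count-table TCM, against 2.69, 3.97 and 3.47 in count-table FCM libraries. Gzmb was thus higher relative to Srgn in count-table TCM libraries. These ratios still hold the trend of fold change on transcript length. With that trend removed, log2 changes were 2.09 for Gzmb, 0.32 for Gzma, 0.69 for Srgn and -0.71 for Prf1. In the reported test they were 2.55, 0.88, 0.98 and -0.48 in the same order. Over the 10 genes together, 0.532% to 0.608% of library counts fell on the set in count-table TCM and 0.210% to 0.256% in count-table FCM libraries.

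**Figure D3:**
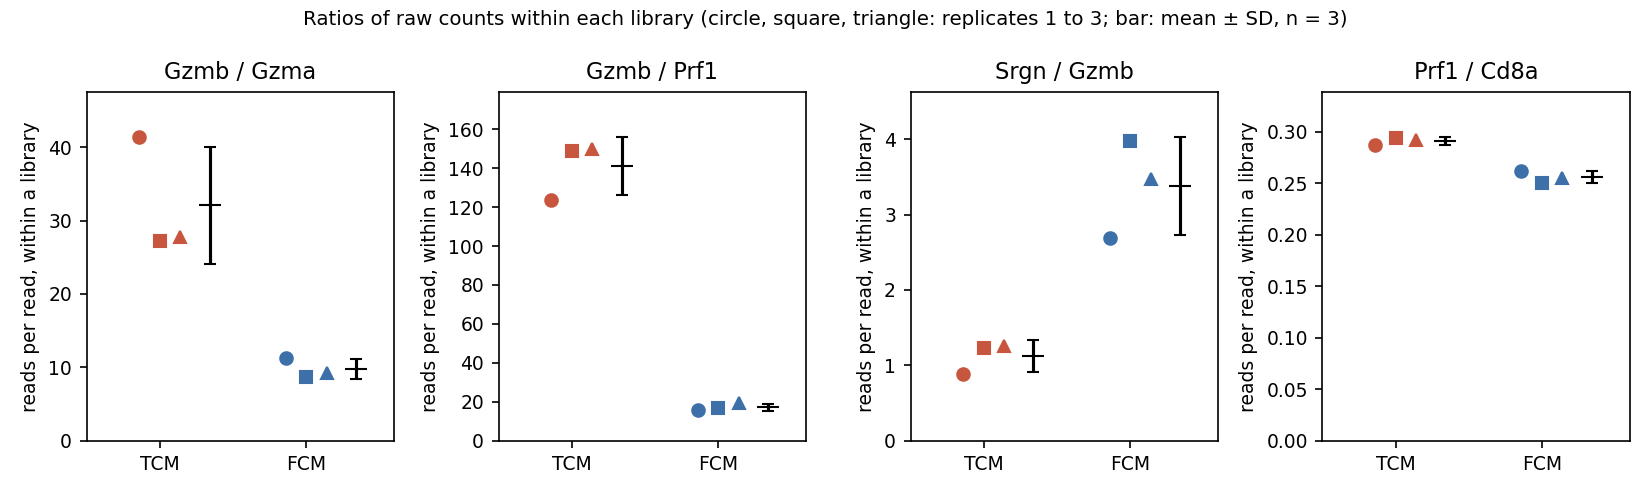
Ratios of raw counts within each library for 4 pairs of genes, on linear axes from 0, count-table TCM at the left and count-table FCM at the right; symbols are replicates 1 to 3 and bars the mean ± SD (n = 3). In count-table TCM libraries the ratios of Gzmb to Gzma and to Prf1 lie higher, that of Srgn to Gzmb lies lower, and that of Prf1 to Cd8a lies slightly higher, without overlap. Taken singly, 64.2% of all genes tested did not overlap.

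The direction of Prf1 depended on the T cell gene it was set against, a comparison chosen after seeing the data. Per read of Cd8a, the gene of the CD8 alpha chain, there were 0.287, 0.294 and 0.292 Prf1 reads in count-table TCM replicates 1 to 3, against 0.262, 0.251 and 0.255 in count-table FCM replicates 1 to 3. Against Cd8a the count-table TCM libraries were thus higher, without overlap, which 64.2% of all genes tested also showed singly. Per read of Cd8b1, the gene of the CD8 beta chain, Prf1 was lower, at 0.249 ± 0.0123 in count-table TCM and 0.364 ± 0.0356 in count-table FCM libraries (SD, n = 3 each). Per read of Cd3e, of the T cell receptor complex, it was 0.149 ± 0.0130 and 0.231 ± 0.0408 in the same order. Cd8a itself was 1.59-fold lower in count-table TCM libraries. Gzmb was higher against Cd3e, at 20.9 ± 1.10 reads per read in count-table TCM and 3.94 ± 0.451 in count-table FCM libraries.

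Over 15 alternative settings that kept the count table's titles, Gzmb, Gzmc and Prf1 kept their direction and their call in each. Gzmf did so too, but it passed the low-count filter through its count-table TCM reads alone, so that is no support. The log2 change of Gzmb ran from 1.85 to 2.63. Gzma kept its call in 13 and Srgn in 12 of the settings, with the same sign throughout. Scaling by library totals alone moved the median log2 change of all genes to -0.23, against -0.018 with TMM, and scaling to CD8 T marker counts moved it to -0.71. The largest part of those marker counts was Thy1, which was itself called higher.

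**Figure D4:**
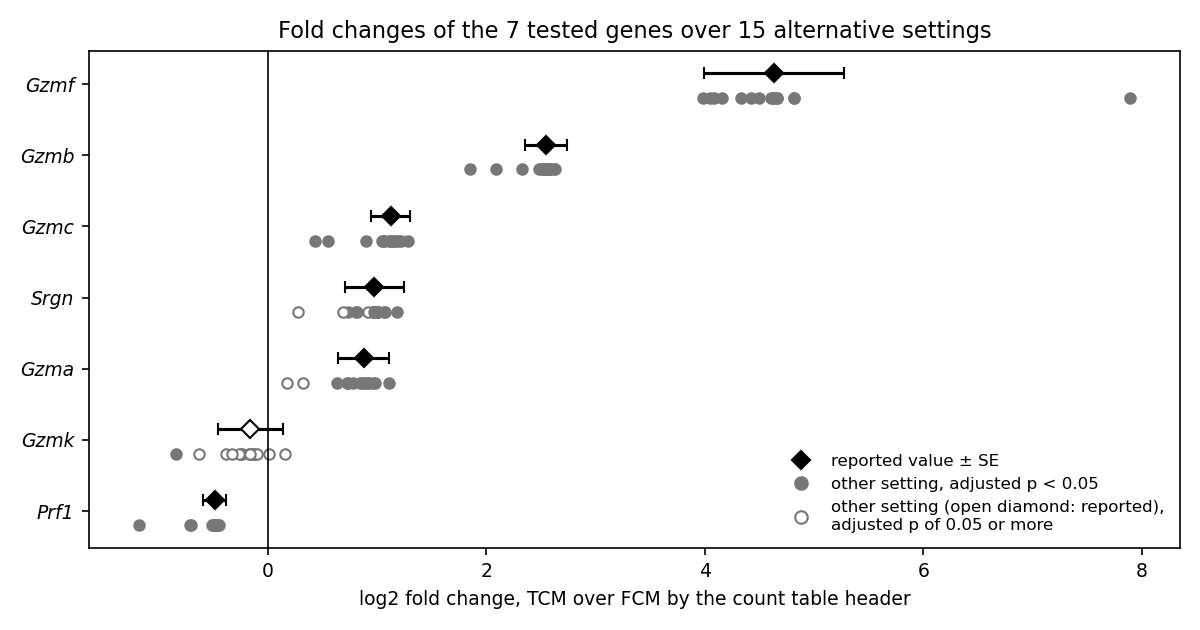
Log2 fold changes of count-table TCM over count-table FCM for the 7 genes tested, with the reported value ± SE as a diamond and 15 other settings as circles, filled where the adjusted p was under 0.05. Gzmb stays between 1.85 and 2.63; the isolated circle of Gzmf at 7.89 leaves out the only count-table FCM library with reads, so that it is a fitted value against 0 counts.

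The promoter of Gzmb is shown because the gene held most of the granzyme reads and rose, and that of Prf1 because it was the gene called lower. Sequences are RefSeq's on GRCm38.p6, 250 bases before to 50 bases after the start. Capitals mark matches on either strand to the motif letters of AP-1 (TGANTCA), the cyclic AMP response element or CRE (TGACGTCA), T-box factors (AGGTGTGA) or RUNX factors (TGTGGT). The Gzmb window is chr14:56262285-56262584 on the minus strand, and RefSeq starts the gene 74 bases from the GENCODE start. The Prf1 window is chr10:61297586-61297885 on the plus strand.
Gzmb: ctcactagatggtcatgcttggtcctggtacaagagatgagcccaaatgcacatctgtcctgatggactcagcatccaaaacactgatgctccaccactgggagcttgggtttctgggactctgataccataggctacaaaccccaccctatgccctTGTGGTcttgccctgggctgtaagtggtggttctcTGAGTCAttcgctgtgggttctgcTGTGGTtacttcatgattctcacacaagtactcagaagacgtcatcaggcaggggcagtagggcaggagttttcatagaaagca
Prf1: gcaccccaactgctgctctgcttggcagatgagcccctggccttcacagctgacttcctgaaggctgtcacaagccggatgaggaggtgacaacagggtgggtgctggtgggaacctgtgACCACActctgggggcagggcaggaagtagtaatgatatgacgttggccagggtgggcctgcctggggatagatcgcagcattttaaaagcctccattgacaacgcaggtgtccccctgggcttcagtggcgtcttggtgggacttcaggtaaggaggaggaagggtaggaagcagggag

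The Gzmb window held an AP-1 match 58 bases before the start and RUNX matches 93 and 34 bases before it. The Prf1 window held 1 RUNX match, 130 bases before the start, and none to AP-1. AP-1 letters occurred in 7.81% of 32851 RefSeq promoter windows of the same length, and among the 10 genes only in Gzmb. RUNX letters occurred in 16.8% of all windows and in 7 of the 10 (Gzma, Gzmb, Gzmc, Gzmd, Gzme, Gzmf and Prf1), of which Gzmc to Gzmf are close in sequence. The T-box letters were in 1.275% of all windows and in none of the 10. Of the other motifs searched on both strands, NFAT (GGAAAA) was in 23.4% of windows and in Gzma. STAT (TTCNNNGAA) was in 8.30% and in Gzmb, the hypoxia response core (ACGTG) in 19.6% and in Gzmk, and an E-box (CAGCTG) in 16.3% and in Prf1 and Srgn. The Gzmk window lies at a RefSeq start 44943 bases from the GENCODE start of that gene. These matches are letters and not sites of binding.

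The neighbours of Gzmb carried a shared stretch with CRE letters. The windows of Gzmc, Gzmd, Gzme, Gzmf and Gzmg are 74.6% to 93.4% identical in pairs, whereas that of Gzmb is 46.8% to 52.7% identical to any other granzyme window of the locus. Below are 30 bases of each around the position of the CRE match in Gzmc, shown because silent and transcribed copies differ there or do not, with the 8 aligned bases in capitals. All lie on the minus strand of chromosome 14, at chr14:56234697-56234726 for Gzmc, chr14:56211472-56211501 for Gzmf, chr14:56159639-56159668 for Gzmg, chr14:56132637-56132666 for Gzmd and chr14:56120670-56120699 for Gzme.
Gzmc: ccttaagtaatgTGACGTCAatcagaagca
Gzmf: ccttaagtaatgTGACGTCAatctgaagca
Gzmg: ccttaagtaatgTGACGTCAatcagaagca
Gzmd: ccttaagtaatgTGATGTCAaccagaagca
Gzme: ccttaagtaatgTGACATCAaccagaagca

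Gzmc and Gzmf, which had reads, and Gzmg, which had none in any library, held the full CRE letters. Counted from 1 at the 5′ end of the capitals, Gzmd differed by C4T and Gzme by G5A, with the CRE base first. CRE letters were present in 1.79% of all windows. The letters were thus found in transcribed copies and in a copy with no reads.

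Of 20 tested genes that move and fuse cytotoxic granules, 5 were higher, 4 were lower and 11 did not pass (median log2 change 0.12). These shares do not exceed those over all genes tested, of which 28.8% were higher and 30.0% lower, and the calls are given gene by gene. Sytl1, which encodes a synaptotagmin-like partner of RAB27A, averaged 42.8 ± 5.65 CPM in count-table TCM and 3.43 ± 0.494 CPM in count-table FCM libraries, a 12.4-fold rise (SD, n = 3 each). Lyst, the lysosomal trafficking regulator that is mutated in beige mice, fell to 38.2 ± 2.38 CPM in count-table TCM, against 138 ± 14.4 CPM in count-table FCM libraries. Vamp7, a vesicle fusion protein gene, Rab11a, of recycling endosomes, and Arl8b, which links granules to kinesin, rose 2.06-fold, 2.07-fold and 1.52-fold. Stxbp2, which encodes MUNC18-2, was 1.52-fold lower. Adjusted p-values for these 6 genes lay between 5.76e-07 and 0.00605 (edgeR). Unc13d, Stx11 and Rab27a, needed with Stxbp2 for granule release, had log2 changes of -0.091, 0.19 and 0.20 and did not pass.

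Among genes of protease maturation and other killing proteins, 3 of 11 tested were higher, 6 were lower and 2 did not pass (median log2 change -0.46). Over all genes tested, 28.8% were higher and 30.0% lower. Ctsc encodes cathepsin C, which removes the propeptide from granzymes. It averaged 108 ± 10.9 CPM in count-table TCM and 187 ± 21.9 CPM in count-table FCM libraries (SD, n = 3 each), 1.73-fold lower (adjusted p = 0.00168, edgeR). Cst7, which encodes cystatin F, an inhibitor of cathepsin C, rose 2.60-fold (adjusted p = 0.000193, edgeR). Nkg7, a granule membrane protein gene of killer cells, rose 2.86-fold to 964 ± 284 CPM in count-table TCM, against 337 ± 76.3 CPM in count-table FCM libraries. Ctsl, of cathepsin L, rose 1.64-fold. Crtam, an adhesion receptor of activated CD8 T cells, was 7.23-fold lower and Tnfsf10, the gene of the death ligand TRAIL, 2.13-fold lower. Fasl did not pass (log2 change 0.24). Gzmm, the granzyme that cuts after methionine, is named here after its values were seen. It had 13, 3 and 14 counts in count-table TCM replicates 1 to 3, against 33, 33 and 42 counts in count-table FCM replicates 1 to 3, and was 2.51-fold lower (adjusted p = 0.0127, edgeR).

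**Figure D5:**
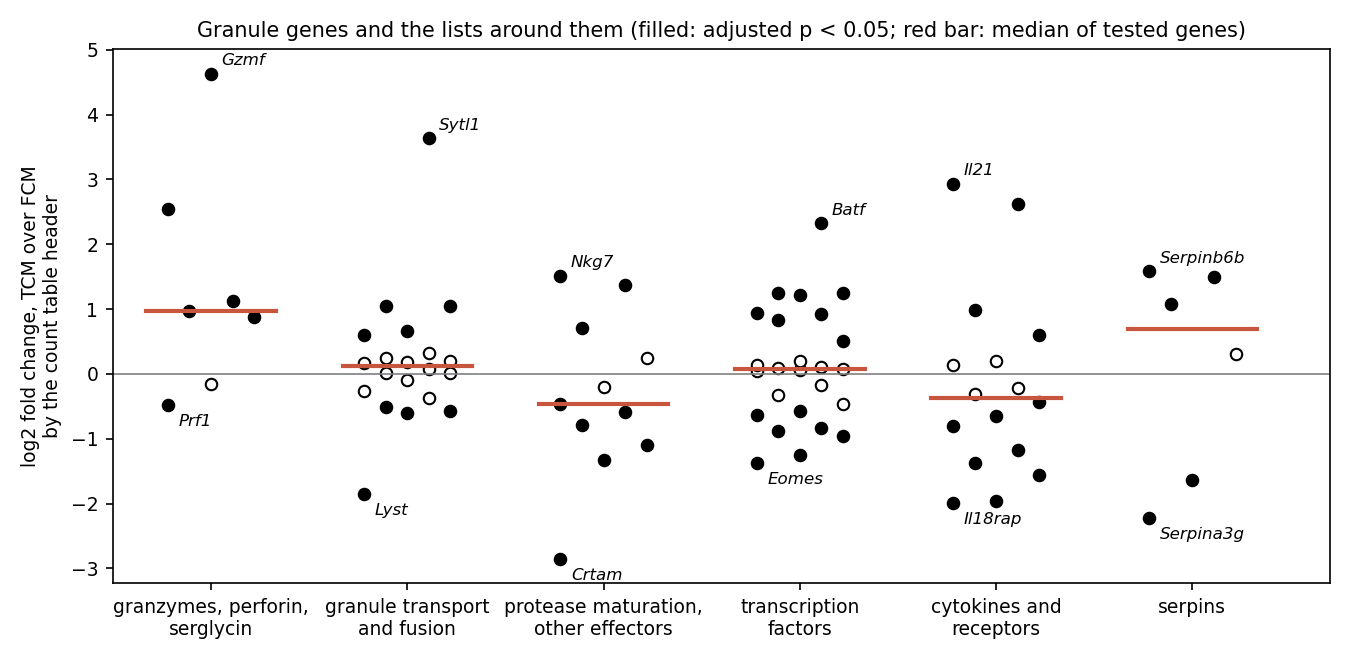
Log2 fold changes of count-table TCM over count-table FCM for the tested genes of the set and of 5 lists around it; filled circles had an adjusted p under 0.05, red bars are medians of tested genes, and the highest and lowest gene of each list are named. The set has a median of 0.98 with Gzmf highest and Prf1 lowest, and like the set, each of the 5 other lists reaches both sides of 0.

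Of 25 tested transcription factors known to act on these genes or on the fate of killer T cells, 8 were higher, 7 were lower and 10 did not pass (median log2 change 0.078). Such shares are near those over all genes tested, 28.8% higher and 30.0% lower, and are no result about the list. Batf, an AP-1 family factor, averaged 387 ± 92.6 CPM in count-table TCM and 77.2 ± 17.5 CPM in count-table FCM libraries (SD, n = 3 each), a 5.01-fold rise. Runx3, a driver of CD8 T cell effector genes, rose 2.38-fold and Nfil3 1.90-fold. Eomes, a T-box factor known to act on Prf1, had 19.97 ± 0.507 CPM in count-table TCM and 52.0 ± 3.77 CPM in count-table FCM libraries and was 2.60-fold lower. Tbx21, which encodes the T-box factor T-bet and is named after its values were seen, rose 2.33-fold (adjusted p = 0.000572, edgeR). Notch2 and Bcl6 were 2.39-fold and 1.93-fold lower. Prdm1, which encodes BLIMP-1, and Tcf7 did not pass, with log2 changes of 0.078 and -0.18.

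Of 16 cytokine and receptor genes tested, 4 were higher, 8 were lower and 4 did not pass (median log2 change -0.37). The shares over all genes tested were 28.8% higher and 30.0% lower. Il21, a cytokine of helper T cells, rose 7.63-fold, and Il12rb2, the inducible chain of the IL-12 receptor, rose 6.14-fold to 220 ± 71.0 CPM in count-table TCM, against 35.7 ± 5.34 CPM in count-table FCM libraries (SD, n = 3 each). Both chains of the IL-18 receptor were lower, Il18rap by 3.98-fold and Il18r1 by 2.95-fold. Il12b and Il15, cytokine genes of myeloid cells, were 3.89-fold and 2.60-fold lower. Adjusted p-values for these 6 genes lay between 1.58e-06 and 0.000277 (edgeR). Macrophage markers moved in the same libraries, with 7 of 10 tested lower and 2 higher. Their summed level was 183 to 217 CPM in count-table TCM and 662 to 725 CPM in count-table FCM libraries. Much of that gap lay in Lyz2 alone, at 32.7 ± 2.09 CPM in count-table TCM and 414 ± 29.2 CPM in count-table FCM libraries. The part of macrophages in the Il12b and Il15 values was not tested.

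Of 6 intracellular serpin genes, Serpinb9, Serpinb6b and Serpinb9b rose 2.81-fold, 3.0-fold and 2.10-fold, Serpina3g and Serpina3f were 4.66-fold and 3.12-fold lower, and Serpinb6a did not pass. For comparison, 28.8% of all genes tested were higher and 30.0% lower. Serpinb9 encodes an inhibitor of granzyme B and Serpinb6b of granzyme A in the mouse.

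Other cells that transcribe granule genes were looked for by their markers. NK cell markers were not raised, with none of 8 tested higher and 3 lower. Their summed levels were 292 to 580 CPM in count-table TCM and 435 to 718 CPM in count-table FCM libraries, which overlapped. Fcer1g and Tyrobp made up most of that sum, averaging 306 and 123 CPM in count-table TCM libraries. In count-table FCM libraries they averaged 334 and 263 CPM. The sum is therefore mainly the level of these genes and says little on the other markers. Ncr1, the defining NK cell receptor gene, averaged 2.09 ± 0.203 CPM in count-table TCM and 3.54 ± 0.487 CPM in count-table FCM libraries (SD, n = 3 each), and Klra4 had 0 counts throughout. Mast cell and basophil markers were lower in 8 of 8 tested, with sums of 32.3 to 44.1 CPM in count-table TCM and 136 to 174 CPM in count-table FCM libraries, while Tpsab1 had 0 counts. B cell markers were lower in 5 of 8 tested, with none higher, at 1009 to 1178 CPM in count-table TCM and 1805 to 2155 CPM in count-table FCM libraries. Beside these marker counts, 28.8% of all genes tested were higher and 30.0% lower. What part a change in the make-up of the cultures had in the granule genes was not tested.

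Genes with the profile nearest to Gzmb over the 6 libraries were found as the smallest root mean square difference of centred log2 CPM, among 8681 other genes whose log2 CPM averaged 3 or more. The measure is a likeness of levels over 6 libraries and says nothing on function. They were Tpi1 (0.077), Qpctl (0.10), Rab34 (0.11), Birc5 (0.12) and Prnp (0.12). For Prf1 they were Nsun2 (0.027), Gprasp1 (0.030), Tango6 (0.032), Mum1 (0.039) and Gpatch2l (0.039).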

How the data were processed

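RNA sequencing of 6 libraries was analysed from a pair of tables. The deposited count table holds raw exon read counts per gene symbol. The other deposited table holds a normalized signal, in which each library's gene counts were scaled by a constant. The submitters' processing notes list STAR 2.7.2d, DESeq2 1.28.1 and mm10. Which tool counted reads, with what annotation and strand setting, is not given in the sources used here, so overlapping genes share uncertain reads. Undoing the scale of the normalized signal returned whole reads for 100% of values above 0 (tolerance 0.1 reads). With these reads and that table's titles edgeR called 7310 genes.

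Samples were grouped by the count table's titles. The 92 spike-in rows held 0 counts and were left out. The test was edgeR 4.0.16's quasi-likelihood test (R 4.3.3) with group alone in the model, after filterByExpr and TMM, and p-values were adjusted by Benjamini-Hochberg across 12423 genes. The SE is the log2 change divided by the square root of F. The code was tested on simulated data. Depth of 17166687 to 25789381 counts limits precision for genes with few reads, and intervals and floors cover counting error only.

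Same-numbered libraries deviated together from their group means (correlation over genes 0.60, 0.15 and 0.36 for replicates 1, 2 and 3), each over the threshold of 0.1, so the numbers were taken to pair the samples. The labels do not state the pairing, and only replicate 1 is set apart by it: count-table TCM replicate 3 with count-table FCM replicate 2 gave 0.42, and count-table TCM replicate 2 with count-table FCM replicate 3 gave 0.27. These unlike-numbered pairs also passed 0.1, so the threshold cannot decide how replicates 2 and 3 pair. The reported test did not use the pairing. It entered the replicate block, and the ratios by replicate number given for Gzmb and Prf1 follow the same numbers. Leaving out replicate 1 of both groups follows them too. For replicates 2 and 3 those ratios rest on a pairing that is not established. The genes of the set and the lists were chosen with earlier results of these data known. In each list the called genes are named in order of p, at most 6, and exceptions are stated. Coordinates and exon lengths are those of GENCODE M21 on GRCm38, also called mm10, and promoters are from RefSeq on GRCm38.p6. Promoters were aligned with Biopython 1.88. Alternatives were library totals, DESeq2's size factors, DESeq2 1.42.0, no low-count filter, a replicate block, each library left out, replicate 1 left out of both groups, Rn45s left out, a length trend removed, the other table's titles and, chosen after seeing the data, scaling to CD8 T marker counts.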

Additional observations from a re-analysis of the deposited data

How the results depend on the processing

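With groups titled as in the normalized data, 1 gene of the set was higher and 5 were lower, and the log2 changes were -0.88 for Gzma, -2.55 for Gzmb, -1.13 for Gzmc, -4.63 for Gzmf, 0.16 for Gzmk, 0.48 for Prf1 and -0.98 for Srgn. Those titles exchange the groups, which is why each sign turns. With the length trend removed 3 genes of the set were higher. With scaling to CD8 T marker counts 3 were higher and 2 lower (Prf1, and Gzmk at -0.84 with an adjusted p of 0.0217 in edgeR, over a range of 0.0217 to 0.970). That scaling moved the median log2 change of all genes to -0.71, against -0.018 with TMM. The Gzmk call thus came with a shift of the whole scale, and causes beyond that shift were not tested. With the replicate block, which uses the pairing, 9103 genes were called in all against 7310, and the log2 change of Gzmb was 2.55 and that of Prf1 -0.48; the block changed no call within the set. Leaving out each library in turn gave 4 to 5 genes of the set higher and 1 lower, and 5696 to 8229 genes called in all. Gzmk then ran from -0.32 to 0.16, with its sign turned without count-table TCM replicate 1 (0.014) and without count-table FCM replicate 3 (0.16). Library totals alone gave 2364 genes higher and 3965 lower, so that 37.4% of calls were higher against 49.0% with TMM, and scaling to CD8 T marker counts gave 13.7%. Counts of 3 or fewer, as in Gzmd, Gzme and Gzmn, give no fold change at this depth.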
